A study of Mus musculus with 20 samples.

Results

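The comparison set livers of Pck1 knockout mice on a diet named for steatohepatitis against livers of wild-type mice on chow. Its members were taken by their labels: 5 mice labelled Pck1-cKO that received the NASH diet (KO NASH) and 5 labelled WT that received chow (WT chow), for 24 weeks each, 10 of the 20 liver RNA samples of the series. The NASH diet is given to induce non-alcoholic steatohepatitis, in which fat-laden hepatocytes, inflammation and scarring occur together. The remaining 10 samples were 5 WT mice on the NASH diet (WT NASH) and 5 Pck1-cKO mice on chow (KO chow), and are used below to show each change alone. All mice were 31 to 33 weeks old. The WT chow group shares neither the knockout nor the diet with KO NASH, so the contributions of gene and diet cannot be told apart in these 10 livers. The labels abbreviate the knockout as cKO and do not spell it out; the cells that lack Pck1, any Cre driver, the strain and the make-up of the diet were not stated there.

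Pck1 encodes cytosolic phosphoenolpyruvate carboxykinase, which converts oxaloacetate to phosphoenolpyruvate and so commits carbon from the citric acid cycle to new glucose. Its loss from hepatocytes restricts gluconeogenesis and leaves more carbon in the citric acid cycle. In steatohepatitis, hepatocytes store triglyceride in lipid droplets, stellate cells deposit collagen, and macrophages that take up lipid join the resident Kupffer cells.

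The WT chow libraries held 13369736 to 19226435 counts and the KO NASH libraries 14238430 to 18366600. All 7 hepatocyte markers were expressed, at a summed level of 53915 to 135246 CPM in WT chow and 61361 to 73132 CPM in KO NASH. Of these hepatocyte markers 3 fell and none rose (Serpina1c, Cyp2e1 and the targeted Pck1), with a median log2 fold change of -0.38. Of all genes 8.93% were called lower, by the test given below. The part of these marker decreases in other gene groups was not tested. The labels do not give sex. Counts of Y-linked genes marked all 5 WT chow livers and 4 KO NASH livers as male, and KO NASH replicate 2 as female. Short and long transcripts were not represented alike in all libraries. A regression of each library's log2 CPM (counts scaled to a common library size), less the average library, on log2 exonic length gave slopes of -0.25, -0.26 and -0.34 in WT chow replicates 3, 4 and 5, 0.12 in WT chow replicates 1 and 2, and 0.07 to 0.19 in the 5 KO NASH libraries. Short transcripts were therefore relatively high in 3 of the 5 controls and in no KO NASH library. Median exonic length was 5031 bases among genes called higher in KO NASH, 3040 among those called lower and 4208 among all genes tested. For this reason the median of each gene list is also plotted below, and most lists are described in the text, from a fit without the 6 libraries of negative slope, which leaves 2 WT chow and 5 KO NASH livers, and from a fit to the 13 male libraries, which leaves 5 and 4. Values from these fits are log2 changes, with edgeR's adjusted p. Replicates 1 and 5 of KO NASH lay close together, with a chi-square per degree of freedom of 7.81 against 44.8 to 81.8 for the other KO NASH pairs, and differed by more than sampling noise.

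Of 14440 genes tested by edgeR's quasi-likelihood F test, 2390 (16.6%) had a Benjamini-Hochberg adjusted p under 0.05, which defines a call below, 1101 (7.62%) higher and 1289 (8.93%) lower in KO NASH. In 2215 genes (15.3%) the 5 KO NASH values did not overlap the 5 WT chow values. The median log2 fold change over all tested genes was 0.02, a centre that the scaling places near 0. Among called genes, 1627 changed at least 2-fold, 793 higher and 834 lower. The genes called lower made up 29.4% of all CPM in WT chow and 16.6% in KO NASH, while those called higher made up 0.865% and 2.88%. Without the libraries of negative slope 2.78% of genes were called higher and 2.51% lower, 808 in all. The male libraries alone gave 6.01% higher and 8.3% lower. Leaving out only WT chow replicates 3, 4 and 5 left 2 controls, and 38 genes were called.

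Either change alone, set against the same 5 WT chow livers, gave fewer calls. In WT NASH 2.69% of genes were called higher and 3.24% lower, and in KO chow 3.03% higher and 2.49% lower. Set against WT NASH, KO NASH had 4.9% of genes called higher and 4.74% lower, and set against KO chow 1.77% higher and 1.52% lower. The interaction, which tests whether the diet's effect differed between the genotypes, was called for 20 genes (0.139%). These comparisons share libraries, so their calls are given side by side only. WT NASH held 4 females and 1 male, replicate 4, so sex differs along with genotype between WT NASH and KO NASH. That male library was also the only one of negative slope in WT NASH, so sex and slope cannot be told apart there. KO chow held 3 males and 2 females, replicates 3 and 5, and its replicates 4 and 5 were of negative slope, while WT chow was all male.

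**Figure D1:**
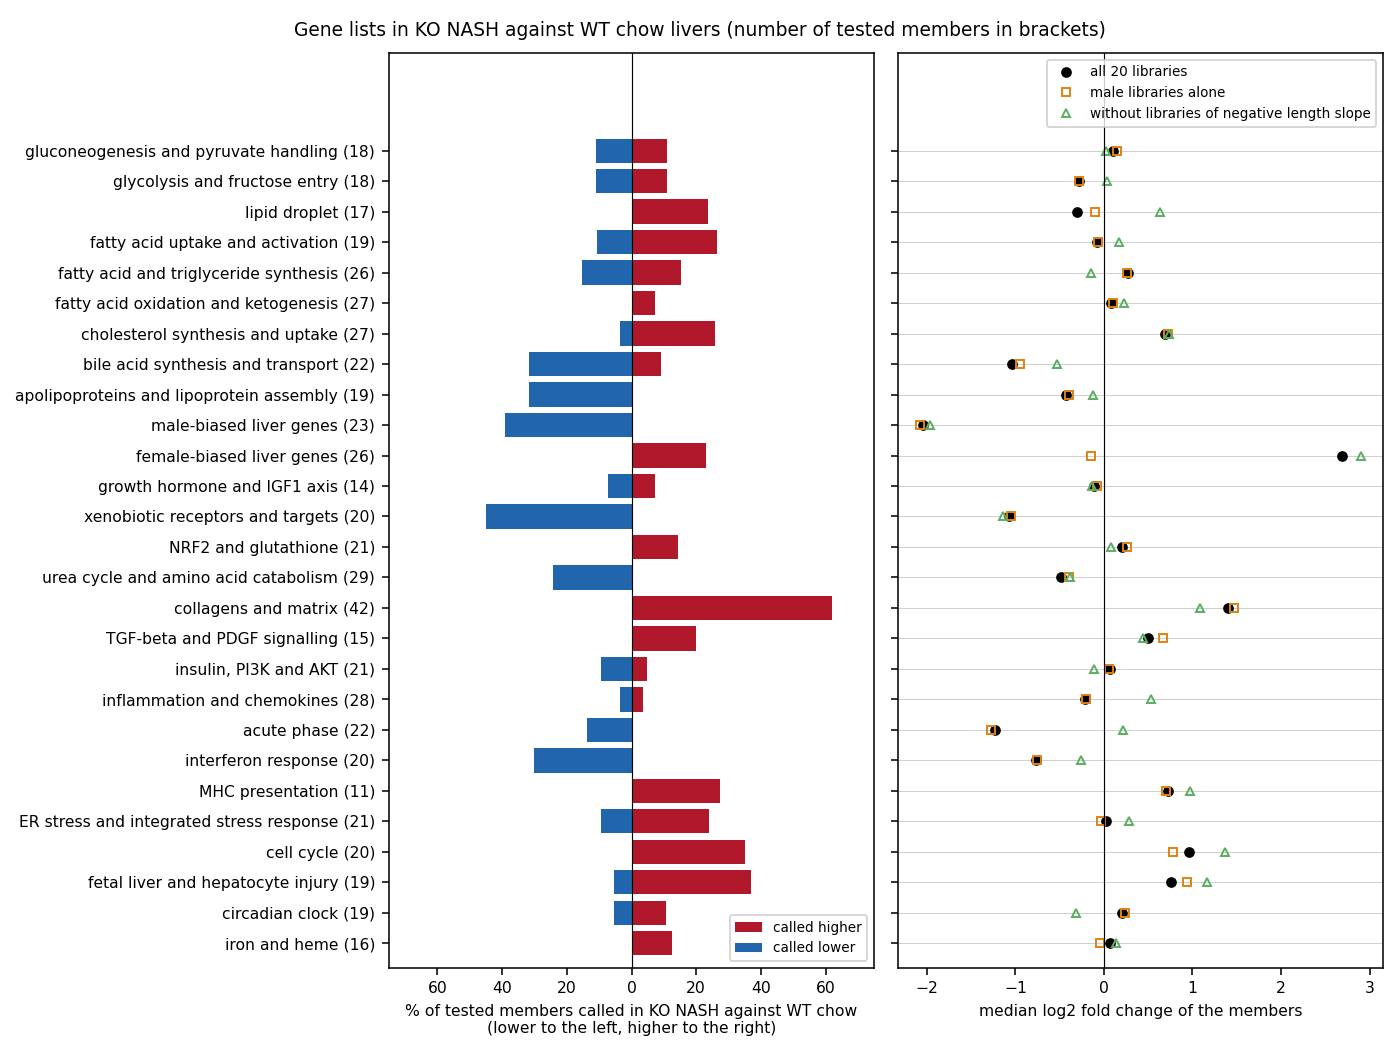
Share of the tested members of 27 gene lists called higher (red) or lower (blue) in KO NASH against WT chow by edgeR (left), and the median log2 fold change of the members (right) from all 20 libraries (black circles), from male libraries alone (orange squares) and without the 6 libraries of negative length slope (green triangles). Collagens and matrix had the highest share called higher (26 of 42 members), and the acute phase list lay at a median of -1.23 with all libraries and 0.21 without those of negative slope.

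The targeted gene was measured to check the labels. Pck1 (chr2:173153048-173159273, GRCm38) was at 4242, 4641, 3406, 1707 and 3871 CPM in WT chow replicates 1 to 5 and at 515, 518, 348, 300.4 and 542 CPM in KO NASH replicates 1 to 5. Every KO NASH liver lay below every WT chow liver (log2 change -3.01 ± 0.30 SE, edgeR adjusted p = 3.1e-05), a fall of 8.03-fold that was called in 38 of 38 alternatives. It was at 2290 ± 511 CPM in WT NASH and 626 ± 175 CPM in KO chow. The transcript was low in both knockout groups, as their labels state, and the diet alone gave -0.64 (edgeR adjusted p = 0.177) in WT livers. Counts per gene do not show which exons the remaining reads cover. The 250 bases before the Pck1 start of RefSeq (GRCm38.p6, chr2:173152823-173153072, plus strand) are shown as the control region of the targeted gene, which fasting hormones act on through cyclic AMP. Capitals mark the single match, 93 bases before the RefSeq start, to TTACGTCA, a cyclic AMP response element searched on both strands. The gene span above is that of GENCODE, which starts within this window.
Pck1: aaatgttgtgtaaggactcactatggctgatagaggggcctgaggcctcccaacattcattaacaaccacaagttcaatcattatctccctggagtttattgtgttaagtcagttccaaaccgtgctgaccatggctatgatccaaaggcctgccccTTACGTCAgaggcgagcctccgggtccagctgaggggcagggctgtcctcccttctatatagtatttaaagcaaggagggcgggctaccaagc
The same letters occur in this window of 142 of 27025 genes (0.525%).

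The other genes of glucose production did not move as a block. Of 18 tested genes of gluconeogenesis and pyruvate handling, 2 rose and 2 fell (median log2 fold change 0.11). Besides Pck1, Slc37a4, the transporter that carries glucose 6-phosphate into the endoplasmic reticulum for the last step of glucose release, fell to 108 ± 32.6 CPM against 237 ± 55.0 CPM (log2 change -1.14 ± 0.26 SE, edgeR adjusted p = 0.00997). Mdh2, the mitochondrial malate dehydrogenase, rose to 200.2 ± 20.95 CPM against 114 ± 24.9 CPM (log2 change 0.81 ± 0.20 SE, edgeR adjusted p = 0.0153). The oxoglutarate-malate carrier Slc25a11 rose from a low level, to 5.10 ± 3.76 CPM against 1.43 ± 0.251 CPM, with replicate 5 of KO NASH at 11.6 CPM and the others at 2.13 to 4.70 CPM. Without the libraries of negative slope, Pck1 was the only one of the 18 called (log2 fold change -3.31, edgeR adjusted p = 5.23e-05). Males alone gave 2 higher and 2 lower. Of 18 tested genes of glycolysis and fructose entry, 2 rose (Pfkl and Pkm) and 2 fell, Khk among them. Khk, the ketohexokinase that traps fructose, was at 162, 204, 200.3, 133 and 424 CPM in WT chow replicates 1 to 5 and at 57.6, 97.8, 72.3, 148 and 54.4 CPM in KO NASH replicates 1 to 5. WT chow replicate 5 was far above the other controls, and the lowest control, replicate 4, lay below the highest KO NASH library. Pfkl, the liver phosphofructokinase, was called without the libraries of negative slope too (0.85, edgeR adjusted p = 0.00625).

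Collagen and matrix genes rose together. Of 42 tested members, 26 rose and none fell, against 7.62% of all genes called higher, and the median log2 fold change was 1.40 against 0.02 over all genes. In 19 members every KO NASH liver lay above every WT chow liver, while 15.3% of all genes had no overlap in either direction. Fibril-forming collagens, the main protein of scars, were at low levels in the controls. Col1a1 was at 7.34, 6.12, 1.69, 3.51 and 0.901 CPM in WT chow replicates 1 to 5 and at 23.2, 17.9, 7.45, 12.8 and 28.0 CPM in KO NASH replicates 1 to 5. The groups did not overlap, but the highest control (7.34 CPM) nearly met the lowest KO NASH liver (7.45 CPM), and the 3 lowest controls were those of negative length slope. The difference was a log2 change 2.17 ± 0.53 SE, edgeR adjusted p = 0.0145. Col1a2, the partner chain, rose to 32.1 ± 15.3 CPM against 7.11 ± 4.89 CPM (log2 change 2.16 ± 0.47 SE, edgeR adjusted p = 0.00794), and Col3a1 to 55.7 ± 33.3 CPM against 14.3 ± 7.20 CPM (log2 change 1.96 ± 0.45 SE, edgeR adjusted p = 0.00998). In both, KO NASH replicate 3 lay below WT chow replicate 1. These 3 chains, Mmp2 (a gelatinase) and Thbs1 (thrombospondin) were highest in KO NASH replicates 1 and 5.

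Basement membrane genes had the 3 smallest p-values of the list. Col4a1 and Col4a2 encode the chains of type IV collagen and lie head to head on chromosome 8, with overlapping 5′ ends (GENCODE, GRCm38: Col4a1 chr8:11198423-11312826, minus strand, and Col4a2 chr8:11312805-11449287, plus strand). Col4a1 was at 28.2, 25.9, 14.3, 14.2 and 11.5 CPM in WT chow replicates 1 to 5 and at 132, 65.3, 84.2, 56.6 and 129.6 CPM in KO NASH replicates 1 to 5. Its lowest KO NASH value, 56.6 CPM, was above the highest control, 28.2 CPM (log2 change 2.31 ± 0.34 SE, edgeR adjusted p = 0.000698). Col4a2 was at 16.4, 19.8, 3.88, 6.27 and 5.20 CPM in WT chow replicates 1 to 5 and at 78.1, 35.1, 54.0, 38.6 and 75.9 CPM in KO NASH replicates 1 to 5. It too showed no overlap (log2 change 2.44 ± 0.44 SE, edgeR adjusted p = 0.00271), and each of the pair was called in 37 of 38 alternatives, the exception being the fit without WT chow replicates 3, 4 and 5. Reads of genes with overlapping ends cannot be split where counting ignores strand, and whether it did is not given in the sources used here. Nid1, which links laminin to type IV collagen, rose to 45.5 ± 17.2 CPM against 15.7 ± 2.09 CPM (log2 change 1.53 ± 0.25 SE, edgeR adjusted p = 0.00136). Loxl1, an enzyme that cross-links elastin and collagen, rose to 3.11 ± 1.07 CPM against 0.866 ± 0.432 CPM (log2 change 1.85 ± 0.34 SE, edgeR adjusted p = 0.00289).

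Without the libraries of negative slope 7 of the 42 matrix genes were called, all higher (Col4a1, Col4a2, Col12a1, Nid1, Lamc1, Loxl1 and Mmp12, the last not among the 26), against 2.78% of all genes, and the median log2 fold change was 1.08. Col1a1 was then at 1.42 (edgeR adjusted p = 0.11), Col1a2 at 1.45 (edgeR adjusted p = 0.0854) and Col3a1 at 1.44 (edgeR adjusted p = 0.129). Leaving out only WT chow replicates 3, 4 and 5 gave a median of 1.07, with no member called. With the slope as a term 17 were called, with sex and slope 21, and in males alone 28 (median 1.47), all higher. In the single changes, 4 of the 42 rose in WT NASH (median 0.51) and 2 in KO chow (median 0.41). Direct comparisons called 9 higher in KO NASH than in WT NASH and 9 higher than in KO chow. The interaction was called by edgeR for none of the 42, and 5 had an unadjusted p under 0.05. Col1a1 was at 6.77 ± 1.84 CPM in WT NASH and 3.69 ± 3.10 CPM in KO chow, with KO NASH minus KO chow at 2.26 (edgeR adjusted p = 0.0287) and KO NASH minus WT NASH at 1.41 (edgeR adjusted p = 0.0904).

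**Figure D2:**
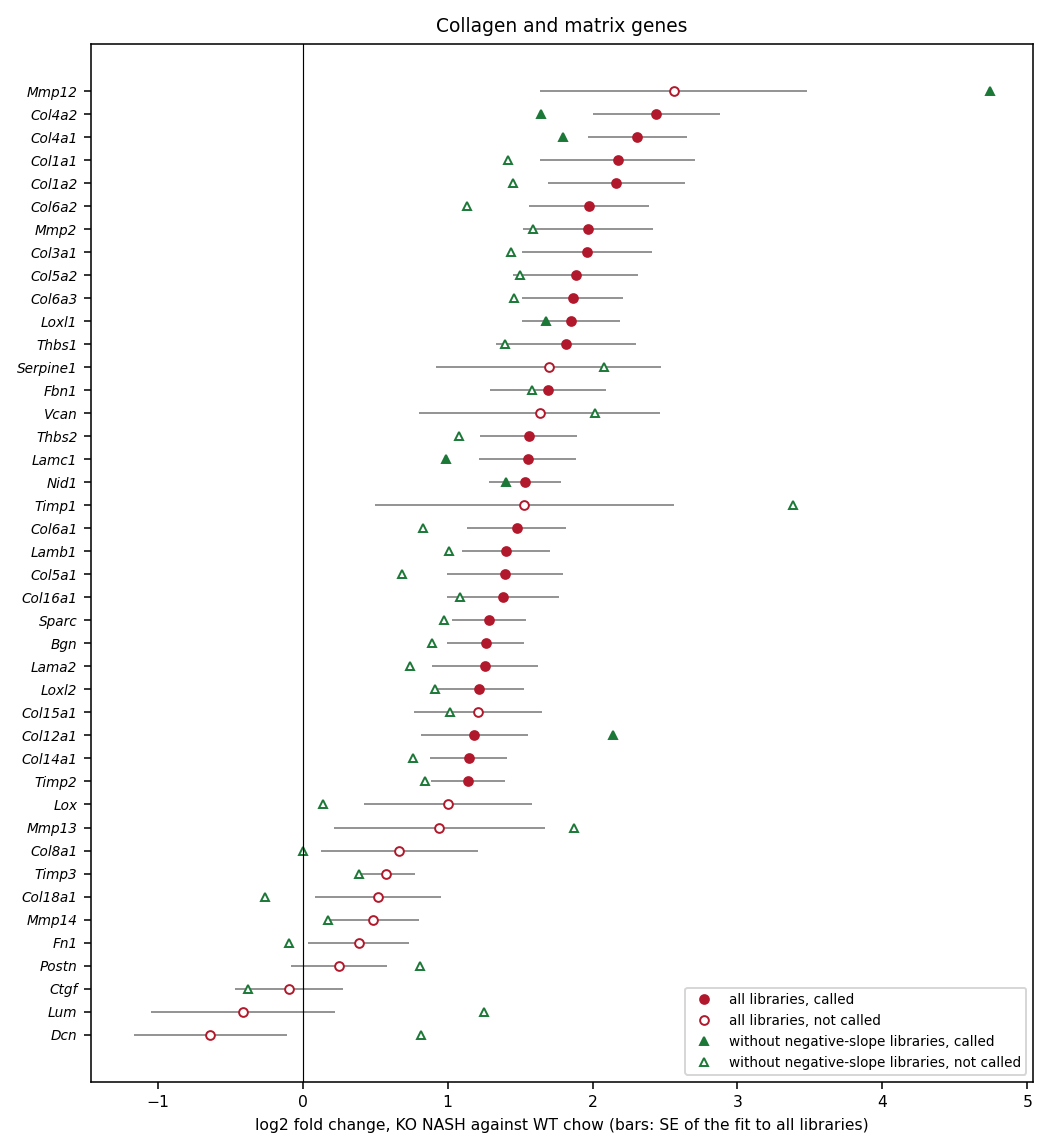
Log2 fold change in KO NASH against WT chow of the 42 tested collagen and matrix genes, from all 20 libraries (circles, with SE) and without the 6 libraries of negative length slope (triangles). Filled symbols passed the edgeR test, 26 of 42 in the former fit and 7 of 42 in the latter.

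Genes of the cells that make and remodel matrix moved less uniformly. Among 12 stellate cell and myofibroblast markers 5 rose, against 7.62% of all genes, and none fell (median 0.71). They were Pdgfrb, Cygb, Ecm1, Ngfr and Col1a1. In a whole liver, more cells of a type and more RNA per cell cannot be told apart. Cygb, the cytoglobin of stellate cells, was at 5.21, 2.55, 3.08, 2.94 and 3.12 CPM in WT chow replicates 1 to 5 and at 10.9, 12.9, 9.62, 9.34 and 13.4 CPM in KO NASH replicates 1 to 5. WT chow replicate 1 was the highest control, still below all KO NASH livers (log2 change 1.73 ± 0.30 SE, edgeR adjusted p = 0.00184), and Cygb was the only one of the 12 called without the libraries of negative slope (1.55, edgeR adjusted p = 0.0197). The summed level of the 12 was 149 to 312 CPM in WT chow and 318 to 458 CPM in KO NASH, and its part in the collagen result was not tested. Of 15 genes of TGF-beta and PDGF signalling, 3 rose (Pdgfra, Pdgfrb and Tgfb3), against 7.62% of all genes. None of the 3 was called without the libraries of negative slope. Pdgfrb, the receptor through which PDGF-B stimulates stellate cells, rose to 15.6 ± 4.59 CPM against 5.59 ± 2.68 CPM (log2 change 1.47 ± 0.37 SE, edgeR adjusted p = 0.0163), and became 1.08 (edgeR adjusted p = 0.117). Pdgfra rose to 16.7 ± 6.30 CPM against 7.06 ± 2.73 CPM, with a control, replicate 1, at 11.8 CPM and 2 KO NASH livers at 11.4 and 11.6 CPM.

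Macrophage genes did not move alike. The summed level of lipid-associated markers was 88.6 to 412 CPM in WT chow and 106 to 365 CPM in KO NASH. Gpnmb, a glycoprotein of lipid-laden macrophages, was at 0.829, 1.08, 0.498, 1.52 and 0.277 CPM in WT chow replicates 1 to 5 and at 15.3, 3.80, 7.88, 5.08 and 16.2 CPM in KO NASH replicates 1 to 5. The lowest KO NASH liver, the female replicate 2, lay above the highest control, replicate 4. The difference was a log2 change 3.53 ± 0.70 SE, edgeR adjusted p = 0.00477, and Gpnmb was at 0.622 ± 0.812 CPM in WT NASH and 2.71 ± 2.56 CPM in KO chow. It held without the libraries of negative slope (3.34, edgeR adjusted p = 0.0237) and in males (3.73, edgeR adjusted p = 0.00595). Itgax (CD11c) and Cd68 also rose (log2 change 1.53 ± 0.39 SE, edgeR adjusted p = 0.017, and log2 change 1.08 ± 0.28 SE, edgeR adjusted p = 0.0181), with WT chow replicate 4 for Itgax and replicate 2 for Cd68 inside the KO NASH range. The other 7 of 10 markers of lipid-associated macrophages, Trem2 and Spp1 among them, were not called. Of the 10, 3 were thus called higher, against 7.62% of all genes, while 6 log2 fold changes lay above 0 and 4 below (median 0.47). Without the libraries of negative slope all 10 lay above 0 (median 1.34) and 3 were called. Of 8 Kupffer cell markers 1 was called lower, against 8.93% of all genes, and 7 log2 fold changes lay below 0 (median -0.76). The called marker was Timd4, a receptor for dying cells on long-lived resident macrophages, at 6.04, 36.8, 10.8, 13.2 and 7.48 CPM in WT chow replicates 1 to 5 and at 6.74, 4.92, 7.14, 4.79 and 6.44 CPM in KO NASH replicates 1 to 5. WT chow replicate 2 was far above the other controls and replicate 1 lay inside the KO NASH range (log2 change -1.31 ± 0.42 SE, edgeR adjusted p = 0.0423). It stayed called without the libraries of negative slope (-1.82, edgeR adjusted p = 0.0365) but not in males (-1.25, edgeR adjusted p = 0.0854). Plvap, a protein of fenestrated endothelium, rose in every KO NASH liver, to 41.2 ± 4.25 CPM against 10.9 ± 5.92 CPM (log2 change 1.91 ± 0.33 SE, edgeR adjusted p = 0.00229). Its call held without the libraries of negative slope (1.35, edgeR adjusted p = 0.0183). The remaining 4 vascular markers were not called with all libraries.

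Lipid storage genes formed a small set of increases. Of 17 tested lipid droplet genes 4 rose, against 7.62% of all genes, and none fell. With all libraries 8 of the 17 log2 fold changes lay above 0 (median -0.30), so in that fit the list did not move as a whole. Cidec, which fuses lipid droplets into large ones, was at 20.3, 11.5, 67.2, 70.6 and 41.6 CPM in WT chow replicates 1 to 5 and at 121, 77.6, 146, 104 and 124 CPM in KO NASH replicates 1 to 5. The lowest KO NASH liver (77.6 CPM) lay above the highest control (70.6 CPM), and among the controls the 3 of negative length slope were the highest (log2 change 1.44 ± 0.44 SE, edgeR adjusted p = 0.0339). Without those libraries the value was 2.85 (edgeR adjusted p = 0.00944). Cidec was at 0.886 ± 0.434 CPM in WT NASH and 295 ± 137 CPM in KO chow: low on the diet in WT livers and highest in KO livers on chow. Its interaction was 4.18 (edgeR adjusted p = 0.0111), which is 1 of the 20 called. Plin4, a droplet coat protein, was at 11.3, 10.6, 13.7, 15.7 and 16.2 CPM in WT chow replicates 1 to 5 and at 24.2, 48.2, 56.1, 79.5 and 25.5 CPM in KO NASH replicates 1 to 5 (log2 change 1.79 ± 0.45 SE, edgeR adjusted p = 0.0153), with no overlap. KO NASH replicate 4 was the highest and replicate 1 the lowest of the 5. Lipe, the hormone-sensitive lipase, and Fitm2, which partitions new triglyceride into droplets, rose too (log2 change 1.30 ± 0.31 SE, edgeR adjusted p = 0.0133, and log2 change 1.04 ± 0.30 SE, edgeR adjusted p = 0.0282). The count was 5 of 18 in males and 4 of 18 without the libraries of negative slope. In this last fit 17 of the 18 log2 fold changes lay above 0, and the median was 0.63. Cidea, a close relative of Cidec that is scarce in lean liver, failed the count filter because it was present in few libraries. It had 846 and 974 counts in KO NASH replicates 3 and 4, both male, 14, 0 and 6 in replicates 1, 2 and 5, and at most 2 in any WT chow library. In KO chow replicate 2 it had 63 counts.

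Fatty acid uptake and activation had calls in both directions. Of 19 genes, 5 rose (Cd36, Slc27a1, Slc27a4, Lpl and Vldlr), against 7.62% of all genes. Another 2 fell (Slc27a5 and Acsm5), against 8.93%, and the median was -0.08. The numbers were the same in males, and without the libraries of negative slope 3 rose and none fell (median 0.17). Cd36, the scavenger receptor that brings in long-chain fatty acids, was at 53.1, 71.1, 124, 309 and 197 CPM in WT chow replicates 1 to 5 and at 532, 447, 613, 538 and 453 CPM in KO NASH replicates 1 to 5. KO NASH livers held a narrow range above all controls, and among the controls replicates 1 and 2 were the lowest (log2 change 1.78 ± 0.45 SE, edgeR adjusted p = 0.0166). With the 6 libraries of negative slope left out the change was 3.07 (edgeR adjusted p = 0.000167). It was at 148 ± 58.9 CPM in WT NASH and 1383 ± 909.9 CPM in KO chow. Slc27a1, a fatty acid transport protein of muscle and fat, rose to 108 ± 18.3 CPM against 31.3 ± 8.67 CPM (log2 change 1.79 ± 0.32 SE, edgeR adjusted p = 0.0027) and stayed called without those libraries (1.51, edgeR adjusted p = 0.00253). In WT NASH it was lower than in WT chow (-1.75, edgeR adjusted p = 0.00329) and in KO chow higher (2.27, edgeR adjusted p = 0.000571). Lpl, lipoprotein lipase, was at 34.4, 57.6, 24.1, 33.6 and 20.6 CPM in WT chow replicates 1 to 5 and at 519, 41.5, 52.8, 26.2 and 449 CPM in KO NASH replicates 1 to 5. Replicates 1 and 5 were high, and the other 3 KO NASH livers lay in the control range (log2 change 2.68 ± 0.65 SE, edgeR adjusted p = 0.0139). Vldlr, which takes up triglyceride-rich particles, rose from below 1.5 CPM in every control to 9.25 to 32.0 CPM (log2 change 4.17 ± 0.78 SE, edgeR adjusted p = 0.0034). Slc27a5, which serves bile acid conjugation as well as fatty acid entry, fell to 639.6 ± 106 CPM against 1255 ± 334 CPM (log2 change -0.97 ± 0.22 SE, edgeR adjusted p = 0.00998).

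Synthesis of fatty acids and triglyceride had calls in both directions, 4 higher (Fads2, Pparg, Srebf1 and Mogat1) and 4 lower (Scd1, Thrsp, Elovl6 and Agpat2) of 26, with a median of 0.27. Without the libraries of negative slope 3 were higher and 2 lower (median -0.15), and in males 4 and 2 (median 0.26). Scd1, the stearoyl-CoA desaturase that makes oleate, was at 3298, 4714, 1182, 1624 and 3648 CPM in WT chow replicates 1 to 5 and at 122, 559, 129.8, 937 and 96.8 CPM in KO NASH replicates 1 to 5. All KO NASH livers were below all controls (log2 change -2.97 ± 0.73 SE, edgeR adjusted p = 0.0142), and replicates 2 and 4 were several times the other 3. Elovl6, which lengthens palmitate to stearate, was at 75.8, 56.0, 51.6, 46.3 and 54.6 CPM in WT chow replicates 1 to 5 and at 14.0, 18.3, 29.9, 25.8 and 14.7 CPM in KO NASH replicates 1 to 5 (log2 change -1.47 ± 0.29 SE, edgeR adjusted p = 0.00476). It was at 50.2 ± 14.3 CPM in WT NASH and 88.0 ± 39.5 CPM in KO chow, and KO NASH was lower than each of these groups (-1.29, edgeR adjusted p = 0.00974 against WT NASH, -2.10, edgeR adjusted p = 0.00191 against KO chow). Its interaction was -1.92 (edgeR adjusted p = 0.0747). The fall was called in 36 of 38 alternatives. Fads2, the delta-6 desaturase, rose instead, to 699 ± 176 CPM against 361 ± 71.7 CPM (log2 change 0.95 ± 0.29 SE, edgeR adjusted p = 0.036), its lowest KO NASH value of 475 CPM lying above the highest control, 447 CPM. Srebf1, the transcription factor of lipogenesis, rose to 59.5 ± 14.9 CPM against 19.04 ± 3.40 CPM (log2 change 1.64 ± 0.30 SE, edgeR adjusted p = 0.00289). Among lipogenic enzymes and regulators of the list, Scd1, Elovl6 and Thrsp fell, Fads2 rose, and Fasn, Acaca and Acly were not called. Srebf1 was at 117 ± 40.6 CPM in WT NASH and 28.6 ± 12.8 CPM in KO chow. Pparg, the adipocyte regulator that drives storage in fatty liver, rose to 10.8 ± 1.70 CPM against 3.74 ± 1.04 CPM (log2 change 1.53 ± 0.32 SE, edgeR adjusted p = 0.00684), and Mogat1, a monoacylglycerol acyltransferase, to 6.22 ± 3.95 CPM against 1.39 ± 1.34 CPM (log2 change 2.17 ± 0.57 SE, edgeR adjusted p = 0.02). In fatty acid oxidation and ketogenesis 2 of 27 rose, Acadvl, the first enzyme of long-chain beta-oxidation, and Ucp2, a mitochondrial carrier, with a median of 0.08. That share is close to the 7.62% of all genes.

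**Figure D3:**
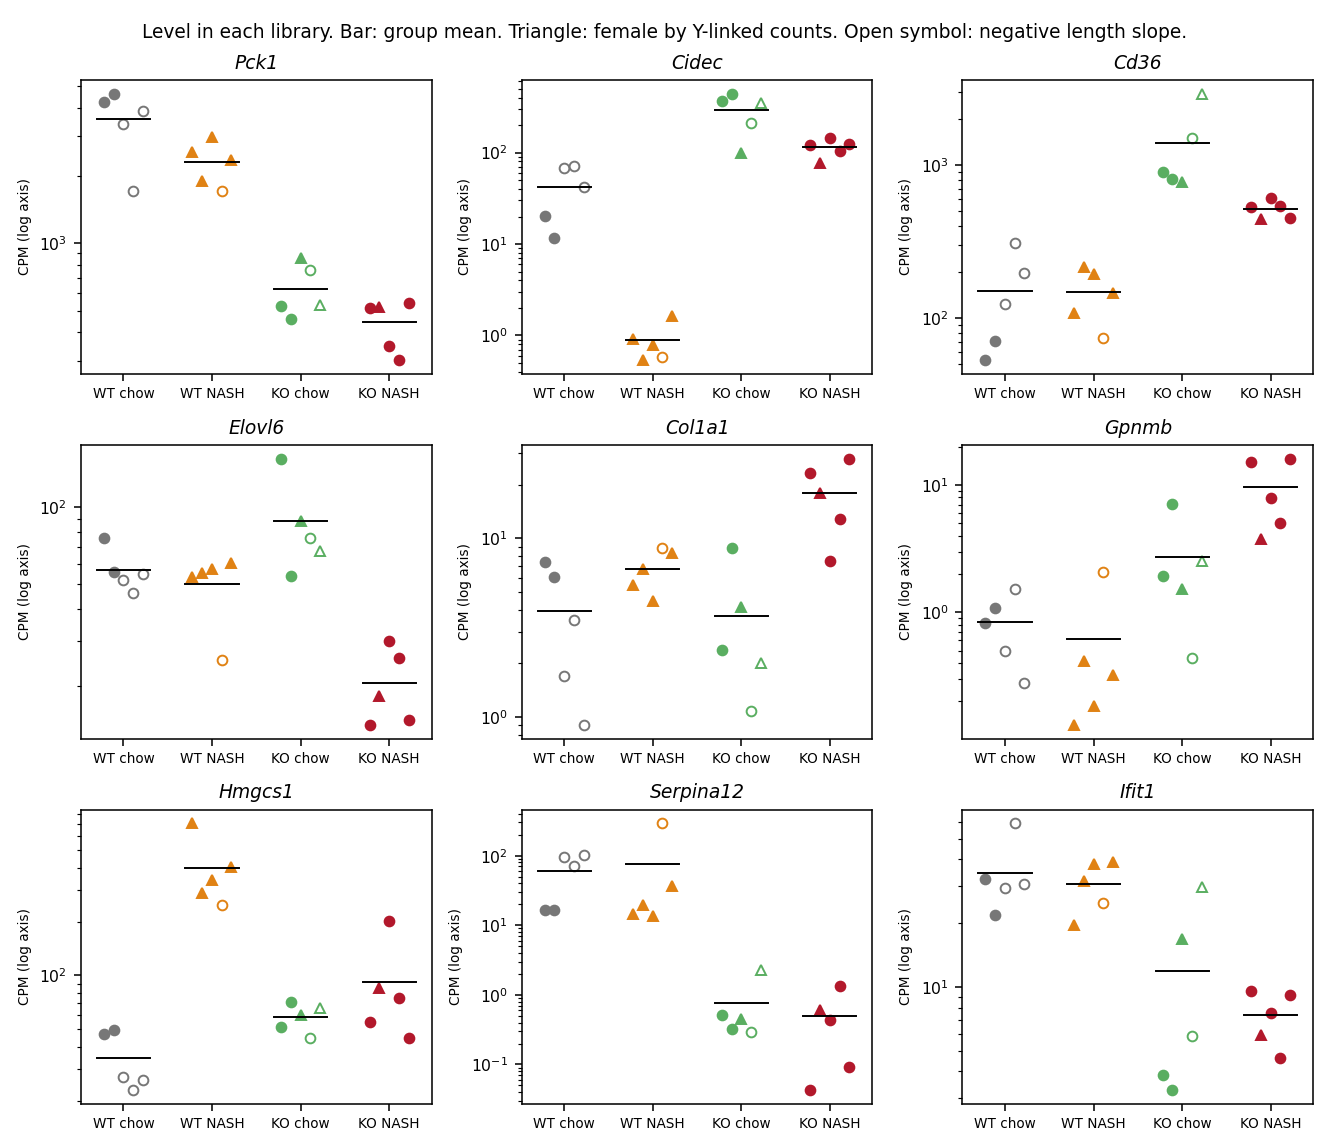
CPM (log axis) of 9 genes in each of the 20 libraries by group, with the group mean as a bar. Triangles are female and open symbols are libraries of negative length slope. Pck1, Elovl6, Serpina12 and Ifit1 lie lower and Cidec, Cd36, Col1a1 and Gpnmb higher in all 5 KO NASH libraries than in all 5 WT chow libraries, while Hmgcs1 overlaps and peaks in WT NASH.

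Sterol synthesis genes were called higher in part. Of 27 genes of cholesterol synthesis and uptake 7 rose (Srebf2, Hmgcs1, Lss, Nsdhl, Fdps, Mvd and Dhcr7), 1 fell (Abcg5), and the median was 0.70. The shares of all genes were 7.62% higher and 8.93% lower. Hmgcs1, the synthase that feeds the mevalonate pathway, was at 47.3, 49.5, 27.2, 22.9 and 26.1 CPM in WT chow replicates 1 to 5 and at 55.0, 85.6, 202, 74.7 and 45.0 CPM in KO NASH replicates 1 to 5. KO NASH replicate 3 stood far above the other 4, and replicate 5 lay below the 2 highest controls (log2 change 1.42 ± 0.37 SE, edgeR adjusted p = 0.0192). Replicate 3 was also the highest KO NASH liver for Lss, Dhcr7, Fdps, Nsdhl and Mvd. In WT NASH, 19 of the 27 rose, with a median of 1.73, and 16 of the 27 were lower in KO NASH than in WT NASH. Hmgcs1 was at 397 ± 182 CPM in WT NASH and 58.8 ± 10.6 CPM in KO chow, and its interaction was -2.87 (edgeR adjusted p = 0.0348). The part of sex in this difference was not tested. Srebf2, the transcription factor of these genes, rose to 40.3 ± 15.3 CPM against 18.0 ± 6.17 CPM (log2 change 1.16 ± 0.33 SE, edgeR adjusted p = 0.0286). Abcg5, a subunit of the sterol exporter into bile, fell to 60.3 ± 9.99 CPM against 127 ± 24.0 CPM (log2 change -1.08 ± 0.21 SE, edgeR adjusted p = 0.00405). In the fit to positive-slope libraries 1 of the 27 was called higher and 2 lower, with the median at 0.73. Hmgcs1 was then at 0.95 (edgeR adjusted p = 0.27). In males 7 rose and 1 fell, also at a median of 0.73.

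Bile acid genes fell, on balance. Of 22 genes of synthesis and transport 7 fell, against 8.93% of all genes, and 2 rose, against 7.62%, with a median of -1.04. The fall covered uptake from blood (Slc10a1 and Slco1b2), conjugation (Baat and Slc27a5) and side-chain or ring modification (Cyp27a1, Hsd3b7 and Akr1c6). Slc10a1, the sodium-dependent bile acid importer, was at 767, 628, 1162, 1081 and 1443 CPM in WT chow replicates 1 to 5 and at 297, 342, 553, 465 and 329 CPM in KO NASH replicates 1 to 5. The groups did not overlap (log2 change -1.36 ± 0.33 SE, edgeR adjusted p = 0.0136), and the controls of positive slope were the 2 lowest. Cyp27a1, the mitochondrial sterol 27-hydroxylase of the acidic pathway, was at 190.1 ± 39.5 CPM against 332 ± 55.7 CPM (log2 change -0.80 ± 0.21 SE, edgeR adjusted p = 0.0176), and was the only decrease of the list called without the libraries of negative slope (-0.96, edgeR adjusted p = 0.0123). Akr1c6, a hydroxysteroid dehydrogenase, fell to 307 ± 111 CPM against 1601 ± 707 CPM (log2 change -2.38 ± 0.55 SE, edgeR adjusted p = 0.0111). Abcc4, an exporter of bile acids into blood, and Cyp39a1, the oxysterol 7-alpha-hydroxylase, rose (log2 change 1.20 ± 0.29 SE, edgeR adjusted p = 0.0126, and log2 change 1.17 ± 0.35 SE, edgeR adjusted p = 0.0336). Among the 14 libraries of positive slope 1 rose and 1 fell, and the median was -0.52. In males 3 rose and 8 fell.

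Drug-metabolising enzymes fell. Of 20 xenobiotic receptors and their targets 9 fell, against 8.93% of all genes, and none rose (median -1.08). All 9 were P450 enzymes, and the receptors Nr1i2, Nr1i3 and Ahr were not called. Cyp3a25 was at 1293, 1095, 1919, 2287 and 2353 CPM in WT chow replicates 1 to 5 and at 199.8, 331, 206, 588 and 200.01 CPM in KO NASH replicates 1 to 5, with no overlap (log2 change -2.55 ± 0.51 SE, edgeR adjusted p = 0.00502). Cyp2c29 fell to 1228 ± 703 CPM against 6867 ± 3293 CPM (log2 change -2.48 ± 0.57 SE, edgeR adjusted p = 0.00998), Cyp2c50 to 667 ± 185 CPM against 2656 ± 930.2 CPM (log2 change -1.99 ± 0.42 SE, edgeR adjusted p = 0.00677) and Cyp3a11 to 1416 ± 389.8 CPM against 5395 ± 2444 CPM (log2 change -1.93 ± 0.47 SE, edgeR adjusted p = 0.0144). These belong to clusters of close copies, so reads may be shared among them. Cyp2e1, the ethanol-inducible enzyme, was at 12890, 12228, 9026, 7404 and 14904 CPM in WT chow replicates 1 to 5 and at 5091, 5411, 6813, 7959 and 4956 CPM in KO NASH replicates 1 to 5, with 1 control below 1 KO NASH liver, and the call lay close to the threshold (log2 change -0.90 ± 0.30 SE, edgeR adjusted p = 0.0468). Of the 20, 6 were called lower without the libraries of negative slope (median -1.14), against 2.51% of all genes. In males 7 were called lower, against 8.3% of all genes (median -1.04). In KO chow 8 of the 20 fell and in WT NASH 1 fell and 1 rose. Cyp2c44, a further member of the Cyp2c family and among the genes of smallest p, fell to 71.2 ± 7.44 CPM against 278 ± 68.7 CPM (log2 change -1.97 ± 0.25 SE, edgeR adjusted p = 0.000166) with a call in 38 of 38 alternatives. Ces2a, a carboxylesterase, fell to 79.1 ± 22.2 CPM against 254 ± 24.9 CPM (log2 change -1.68 ± 0.25 SE, edgeR adjusted p = 0.000689), also in 38 of 38.

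Genes of the male liver programme, which pulsed growth hormone maintains through STAT5, fell, also among males. Of 23 tested male-biased genes 9 fell, against 8.93% of all genes, and none rose (median -2.05). In 14 the 5 KO NASH livers lay below all controls, while in 15.3% of all genes the groups did not overlap, in either direction. In the male libraries alone 17 of 24 fell, against 8.3% of all genes, and none rose (median -2.08). Leaving out only the female KO NASH library, with the females of the other groups kept, gave 5 of 23 lower and the same median. Serpina12 (vaspin), a serine protease inhibitor, was at 16.5, 16.5, 94.2, 71.1 and 101 CPM in WT chow replicates 1 to 5 and at 0.0426, 0.598, 0.435, 1.34 and 0.0907 CPM in KO NASH replicates 1 to 5. Every KO NASH liver was below 1.4 CPM and every control above 16 CPM (log2 change -6.91 ± 1.10 SE, edgeR adjusted p = 0.00119, males -6.98, edgeR adjusted p = 0.00087). In WT NASH the male liver was at 290.1 CPM and the females at 13.5 to 36.4 CPM, and KO chow was at 0.763 ± 0.835 CPM. Moxd1, a copper monooxygenase homologue, had 3275 counts over the 5 controls and 12 over the 5 KO NASH livers (log2 change -8.60 ± 2.29 SE, edgeR adjusted p = 0.0208). In WT NASH the male liver was at 380.0 CPM and the 4 females at 0. The fall in males alone was -8.24 (edgeR adjusted p = 0.000449). Ugt2b1, a glucuronosyltransferase, fell to 142 ± 49.7 CPM against 908 ± 204 CPM (log2 change -2.68 ± 0.46 SE, edgeR adjusted p = 0.00184), and Slc22a7, an organic anion transporter, to 2.00 ± 0.774 CPM against 12.1 ± 4.85 CPM (log2 change -2.59 ± 0.39 SE, edgeR adjusted p = 0.000698). Slc22a7 showed no male bias in WT NASH, with the male liver at 43.8 CPM and the females at 29.9 to 61.5 CPM. It was higher in WT NASH than in all-male WT chow (1.74, edgeR adjusted p = 0.00842). Mup7 and Mup20, major urinary proteins, and Hsd3b5 missed the threshold with all libraries (edgeR adjusted p = 0.075, 0.0579 and 0.0544) and passed in males (log2 fold change -6.06, -4.52 and -4.61, with edgeR adjusted p = 0.00363, 0.00513 and 0.00152). The Mup genes are near-identical copies, and their values are uncertain. In KO chow 7 of the 23 fell, and in WT NASH, with 4 females, 2 fell and 2 rose.

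The median of female-biased genes depended on the female library. Of 26 tested, 6 rose, against 7.62% of all genes, and none fell with all libraries, at a median of 2.69. In males alone 7 of 23 rose and 1 fell, and the median was -0.14. Without the female KO NASH library alone 3 of 26 rose and 1 fell (median -0.42), and without the libraries of negative slope 3 rose (median 2.91). Cyp2b9, a phenobarbital-inducible P450, was at 2.19, 0.0542, 0.0995, 0.95 and 0.277 CPM in WT chow replicates 1 to 5 and at 281, 574, 303, 629 and 290.5 CPM in KO NASH replicates 1 to 5. All KO NASH livers, male and female, were above 280 CPM, and the controls were at most 2.19 CPM (log2 change 9.15 ± 1.55 SE, edgeR adjusted p = 0.00181, males 9.003, edgeR adjusted p = 0.00126). It was at 539.5 ± 319 CPM in WT NASH and 501 ± 504 CPM in KO chow, but in WT NASH the male liver was at 0.588 CPM and the females at 562 to 796 CPM. Male KO chow livers ranged from 6.31 to 408 CPM, below both female ones (1008 and 1041 CPM). The interaction was -9.80 (edgeR adjusted p = 0.0348), and the part of sex in it was not tested. Its close copy Cyp2b13 was at 0.118, 0, 0.299, 0 and 0 CPM in WT chow replicates 1 to 5 and at 5.50, 158, 1.74, 24.1 and 5.44 CPM in KO NASH replicates 1 to 5. The female liver was far above replicate 4, the next, and the value in males was 6.997 (edgeR adjusted p = 0.00932). Hamp2, a hepcidin copy, and Abcd2, a peroxisomal fatty acyl transporter, rose with males alone too (3.11, edgeR adjusted p = 0.0363 and 2.00, edgeR adjusted p = 0.0229). Of 14 genes of the growth hormone and IGF1 axis 1 rose, Stat5a, and 1 fell, Igf1, a share below the 16.6% of all genes. Igf1, the growth factor the liver secretes in response to growth hormone, was at 669.6, 669.6, 1000.5, 1228 and 1015 CPM in WT chow replicates 1 to 5 and at 329, 324, 451, 386 and 325 CPM in KO NASH replicates 1 to 5. Its fall was called with all libraries (log2 change -1.34 ± 0.25 SE, edgeR adjusted p = 0.003), without those of negative slope (-0.87, edgeR adjusted p = 0.018) and in males (-1.29, edgeR adjusted p = 0.0101).

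**Figure D4:**
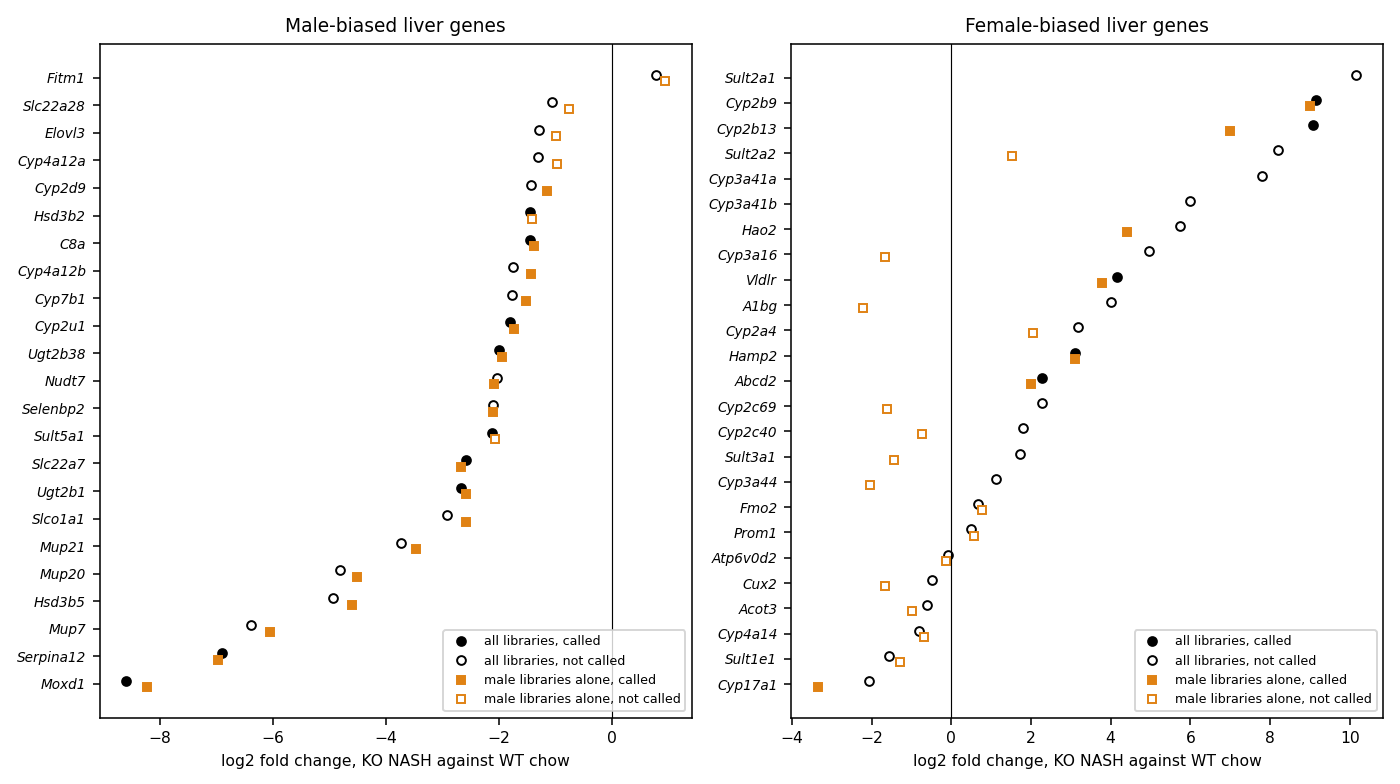
Log2 fold change in KO NASH against WT chow of male-biased (left) and female-biased (right) liver genes, from all 20 libraries (black) and from the 13 male libraries (orange), with 1 female-biased gene not shown. Filled symbols passed the edgeR test. Male-biased genes stay left of 0 in males, except Fitm1, while several female-biased genes that lie far right with all libraries are near or left of 0 in males.

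Amino acid catabolism fell at 7 of 29 genes, against 8.93% of all genes, and rose at none (median -0.48). Arg1, the arginase that ends the urea cycle, fell to 970.1 ± 197 CPM against 2550.4 ± 1035 CPM (log2 change -1.39 ± 0.36 SE, edgeR adjusted p = 0.0173). Oat, ornithine aminotransferase, fell to 1156 ± 139 CPM against 2557 ± 880.1 CPM (log2 change -1.15 ± 0.31 SE, edgeR adjusted p = 0.0207), and Hpd, of tyrosine breakdown, to 1728 ± 167 CPM against 3392 ± 897 CPM (log2 change -0.97 ± 0.22 SE, edgeR adjusted p = 0.00886). Hpd was at 1850.5 ± 250.2 CPM in WT NASH and 3508 ± 869.9 CPM in KO chow, close to WT chow in KO chow and close to KO NASH in WT NASH. For this list 7 of 29 fell and 1 rose in WT NASH, and 1 fell and 1 rose in KO chow, both against the same controls. When libraries of negative slope were left out, 5 were called, as in males, all lower. Oat and Hpd were among these (-1.06, edgeR adjusted p = 0.0461 and -0.64, edgeR adjusted p = 0.0387) and Arg1 was not (-0.63, edgeR adjusted p = 0.0973).

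Decreases among secreted hepatocyte proteins were partly lost without the libraries of negative slope. The acute phase list had 3 of 22 lower (Fgg, Fgb and Crp) and none higher. Of all genes 8.93% were called lower and 16.6% in either direction. Its median of -1.23 became 0.21, with none called, without those libraries. In males 4 fell (median -1.27). Fgg, the fibrinogen gamma chain, was at 3276, 2873, 9025, 22360 and 9478 CPM in WT chow replicates 1 to 5 and at 1901, 3375, 2346, 1886 and 1937 CPM in KO NASH replicates 1 to 5. KO NASH livers overlapped WT chow replicates 1 and 2, and replicate 4 of the controls stood far above every other library compared (log2 change -2.04 ± 0.57 SE, edgeR adjusted p = 0.026, without the negative slopes -0.41, edgeR adjusted p = 0.585). Among 19 apolipoproteins and lipoprotein assembly genes 6 fell, against 8.93% of all genes (median -0.43). None was called in males, where the median was -0.39, or without the libraries of negative slope, where it was -0.12. Outside these lists, Mgst1, a microsomal glutathione transferase and 1 of the 5 most abundant genes that fell, was at 3169, 3179, 15769, 21114 and 11433 CPM in WT chow replicates 1 to 5 and at 2331, 2220.5, 3324, 3125 and 2008 CPM in KO NASH replicates 1 to 5. The KO NASH livers overlapped the 2 controls of positive slope, and the log2 fold change of -2.07 became -0.28 (edgeR adjusted p = 0.735). Serpina3k, a kallikrein-binding serpin, fell in either case (log2 change -2.77 ± 0.65 SE, edgeR adjusted p = 0.012, and -1.68, edgeR adjusted p = 0.041). Serpina1e, an alpha-1 antitrypsin copy, was at 1947, 2789.5, 2495, 648 and 733 CPM in WT chow replicates 1 to 5 and at 18.2, 1.92, 9.002, 7.28 and 18.4 CPM in KO NASH replicates 1 to 5, a fall called in 38 of 38 alternatives (log2 change -7.30 ± 1.40 SE, edgeR adjusted p = 0.00386). Reads may be shared among the Serpina1 copies.

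Interferon response genes fell in part. Of 20 tested, 6 fell (Ifit1, Isg15, Ifit3, Irgm1, Iigp1 and Irf7), against 8.93% of all genes, and none rose, with a median of -0.77. In each of the 6 the groups did not overlap, as in 15.3% of all genes in either direction. Ifit1, a cytosolic sensor of foreign RNA, was at 32.3, 21.8, 29.3, 59.1 and 30.5 CPM in WT chow replicates 1 to 5 and at 9.55, 5.94, 7.51, 4.65 and 9.16 CPM in KO NASH replicates 1 to 5. WT chow replicate 4 was the highest control, and the lowest, replicate 2, still lay well above the highest KO NASH liver (log2 change -2.23 ± 0.48 SE, edgeR adjusted p = 0.00764). Irgm1, an immunity GTPase, fell to 24.8 ± 4.48 CPM against 59.7 ± 19.1 CPM (log2 change -1.27 ± 0.25 SE, edgeR adjusted p = 0.00495), Iigp1, another, to 233 ± 35.0 CPM against 987 ± 559.9 CPM (log2 change -2.08 ± 0.54 SE, edgeR adjusted p = 0.0177), and Isg15, a ubiquitin-like modifier, to 4.61 ± 0.961 CPM against 9.71 ± 2.08 CPM (log2 change -1.07 ± 0.26 SE, edgeR adjusted p = 0.0149). Against WT NASH 8 of the 20 were lower in KO NASH and none higher. In KO chow 2 fell, and in WT NASH 2 rose. Without the 6 libraries of negative slope 1 of 20 was called, Ifit1 (-1.87, edgeR adjusted p = 0.035), and the median was -0.25. In males 5 fell (median -0.76).

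Interferon acts on such genes through the interferon-stimulated response element. The core GAAANNGAAA was searched on both strands, overlaps allowed, in the 250 bases before the start of each gene in RefSeq (GRCm38.p6). It was found in 936 of 27025 genes (3.46%), in 10 of the 15 members of the list with such an entry, and in 4 of the 5 that fell and had one (Ifit1, Ifit3, Isg15 and Irgm1). Windows of 3 genes that fell together are shown, with the matches in capitals: Ifit1 at chr19:34640639-34640888 (plus strand), Isg15 at chr4:156200819-156201068 (minus strand) and Ifit3 at chr19:34583279-34583528 (plus strand).
Ifit1: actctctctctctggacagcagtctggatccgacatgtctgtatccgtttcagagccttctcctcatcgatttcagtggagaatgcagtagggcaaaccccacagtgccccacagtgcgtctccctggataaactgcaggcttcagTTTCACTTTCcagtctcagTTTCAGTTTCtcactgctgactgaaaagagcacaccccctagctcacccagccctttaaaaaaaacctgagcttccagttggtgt
Isg15: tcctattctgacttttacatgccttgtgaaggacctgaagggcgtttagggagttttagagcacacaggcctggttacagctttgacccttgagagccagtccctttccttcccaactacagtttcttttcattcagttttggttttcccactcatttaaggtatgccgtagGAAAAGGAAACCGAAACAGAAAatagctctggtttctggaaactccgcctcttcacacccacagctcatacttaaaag
Ifit3: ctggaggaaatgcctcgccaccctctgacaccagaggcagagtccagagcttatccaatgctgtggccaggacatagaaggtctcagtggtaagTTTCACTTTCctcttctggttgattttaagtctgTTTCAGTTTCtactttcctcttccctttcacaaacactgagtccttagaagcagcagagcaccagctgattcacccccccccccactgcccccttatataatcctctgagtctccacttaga
Ifit1 and Ifit3 each hold 2 separate matches, on the strand opposite to the gene, and Isg15 holds 3 that overlap on its own strand. All windows are printed in the direction of their gene. A match is a description of the letters, and binding was not measured.

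Antigen presentation genes were called higher in part, and inflammation genes gave few calls. Of 11 MHC genes 3 rose (Cd74, H2-Ab1 and H2-Eb1), all of class II, against 7.62% of all genes, and the median was 0.72. Without the libraries of negative slope 2 of 12 rose (median 0.97), and in males 2 of 13 (median 0.70). Cd74, the invariant chain, was at 42.2, 51.8, 28.6, 61.4 and 26.7 CPM in WT chow replicates 1 to 5 and at 95.7, 93.4, 63.1, 82.8 and 117 CPM in KO NASH replicates 1 to 5 (log2 change 1.10 ± 0.26 SE, edgeR adjusted p = 0.0116), with no overlap between the groups, though KO NASH replicate 3 (63.1 CPM) was close to WT chow replicate 4 (61.4 CPM). H2-Ab1 rose from a low level, to 3.08 ± 1.42 CPM against 0.624 ± 0.296 CPM (log2 change 2.31 ± 0.46 SE, edgeR adjusted p = 0.00467), and H2 genes have close copies. Of 28 genes of inflammation and chemokines 1 rose (Il1rn) and 1 fell (Cxcl13), below the background share, and Il1b, Ccl2 and Cxcl10 were not called. The median of this inflammation list was -0.22 with all libraries, -0.20 in males and 0.53 without the libraries of negative slope, and in this last fit too 1 rose and 1 fell. Tnf and Il6 did not pass the count filter. Il1rn, the antagonist of the interleukin 1 receptor, rose to 47.8 ± 16.6 CPM against 18.4 ± 8.36 CPM (log2 change 1.38 ± 0.35 SE, edgeR adjusted p = 0.0167). Cxcl13, a B cell chemokine, was at 2.72, 57.5, 8.56, 22.1 and 4.504 CPM in WT chow replicates 1 to 5 and at 0.426, 0.812, 1.30, 1.96 and 0.453 CPM in KO NASH replicates 1 to 5 (log2 change -4.29 ± 1.18 SE, edgeR adjusted p = 0.024), lower in all KO NASH livers, and it was at 13.8 ± 14.4 CPM in WT NASH and 46.2 ± 78.4 CPM in KO chow.

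Genes of fetal liver and injury were called mostly higher. Of 19 genes of fetal liver and hepatocyte injury 7 rose and 1 fell (median 0.75), with the same numbers in males and without the libraries of negative slope (median 1.16). The share of all genes called higher was 7.62% with all libraries, 6.01% in males and 2.78% without those of negative slope. H19, a fetal non-coding RNA that is silenced after birth, was at 0.355, 0, 0.199, 1.52 and 0.139 CPM in WT chow replicates 1 to 5 and at 76.1, 24.3, 2.79, 2.64 and 78.0 CPM in KO NASH replicates 1 to 5. KO NASH replicates 1 and 5 were at 76.1 and 78.0 CPM and replicates 3 and 4 at 2.79 and 2.64 CPM, near WT chow replicate 4 (log2 change 6.53 ± 1.11 SE, edgeR adjusted p = 0.00181). Sox4, a progenitor transcription factor, rose to 5.07 ± 2.71 CPM against 0.961 ± 0.723 CPM (log2 change 2.36 ± 0.51 SE, edgeR adjusted p = 0.0076), and the keratin Krt23 to 18.4 ± 3.63 CPM against 3.50 ± 2.07 CPM (log2 change 2.37 ± 0.57 SE, edgeR adjusted p = 0.0129). Anxa5, an annexin that binds exposed phosphatidylserine, was at 61.01, 60.1, 26.1, 23.4 and 42.3 CPM in WT chow replicates 1 to 5 and at 179.9, 125, 115, 93.5 and 162 CPM in KO NASH replicates 1 to 5 (log2 change 1.66 ± 0.34 SE, edgeR adjusted p = 0.00526). Tff3, a trefoil peptide, fell from 8.11 to 58.1 CPM in the controls to at most 1.75 CPM (log2 change -5.40 ± 1.68 SE, edgeR adjusted p = 0.0377), and was at 31.7 ± 70.6 CPM in WT NASH, where the male liver was at 158.0 CPM and the females below 0.25 CPM.

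Of 20 cell cycle genes 7 rose, against 7.62% of all genes, and none fell (median 0.96). They were Mki67, Top2a, Cdc20, Mcm5, Mcm6, E2f1 and Cdkn1a, the last an inhibitor of cycling. Cdkn1a (p21) was at 1.18, 1.08, 1.69, 3.70 and 2.49 CPM in WT chow replicates 1 to 5 and at 31.1, 5.21, 13.7, 20.7 and 33.5 CPM in KO NASH replicates 1 to 5 (log2 change 3.39 ± 0.62 SE, edgeR adjusted p = 0.003). The lowest KO NASH value, from the female, was above the highest control, and it was at 30.1 ± 18.9 CPM in WT NASH and 4.40 ± 4.04 CPM in KO chow. Mki67, a marker of dividing cells, rose to 6.71 ± 4.23 CPM against 1.52 ± 0.737 CPM (log2 change 2.12 ± 0.44 SE, edgeR adjusted p = 0.00656). In the fit to positive-slope libraries Cdkn1a alone was called (4.21, edgeR adjusted p = 0.0236). In males 10 of 23 rose. Among 21 genes of ER stress and the integrated stress response 5 rose (Atf3, Trib3, Gdf15, Ddit3 and Sesn2) and 2 fell (Xbp1 and Creb3l3), with a median of 0.02. The shares of all genes were 7.62% higher and 8.93% lower. Atf3 was at 1.48, 3.57, 2.09, 1.71 and 0.416 CPM in WT chow replicates 1 to 5 and at 22.3, 2.82, 11.9, 2.44 and 22.7 CPM in KO NASH replicates 1 to 5 (log2 change 2.74 ± 0.69 SE, edgeR adjusted p = 0.0164), and the 2 lowest KO NASH livers, replicates 2 and 4, lay inside the control range. Trib3, a pseudokinase that binds AKT, was also highest in replicates 1 and 5, at 57.5 and 53.4 CPM (log2 change 2.09 ± 0.50 SE, edgeR adjusted p = 0.0133). Gdf15, a stress hormone, rose to 9.56 ± 3.62 CPM against 2.98 ± 1.15 CPM (log2 change 1.69 ± 0.44 SE, edgeR adjusted p = 0.0179) and was the only member called without the libraries of negative slope (2.45, edgeR adjusted p = 0.014). In insulin, PI3K and AKT signalling 1 of 21 rose, Trib3, and 2 fell, among them Pik3c2g, a class II PI3 kinase of liver, a share below the 16.6% of all genes called. Pik3c2g was at 4.44, 4.44, 2.99, 5.98 and 3.26 CPM in WT chow replicates 1 to 5 and at 1.88, 2.27, 1.43, 1.87 and 2.63 CPM in KO NASH replicates 1 to 5 (log2 change -1.06 ± 0.29 SE, edgeR adjusted p = 0.0223). It was at 4.21 ± 1.33 CPM in WT NASH and 9.76 ± 3.27 CPM in KO chow, with an interaction of -2.29 (edgeR adjusted p = 0.0315): higher than WT chow in KO chow (1.21, edgeR adjusted p = 0.0166) and lower in KO NASH.

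Transcripts of the mitochondrial genome took 5.57% to 9.80% of counts in KO NASH and 8.01% to 11.4% in WT chow. Of the 13 protein-coding genes, a list added after the values were seen, 2 fell and none rose. The shares of all genes were 8.93% called lower and 16.6% called in either direction. ND5, a subunit of complex I, was at 8031, 9259, 6273, 8586 and 6539.9 CPM in WT chow replicates 1 to 5 and at 2441, 3285, 3939.8, 3783 and 2889 CPM in KO NASH replicates 1 to 5, with no overlap (log2 change -1.24 ± 0.24 SE, edgeR adjusted p = 0.00442, without the negative slopes -1.39, edgeR adjusted p = 0.00727). It was also below WT NASH (-1.05, edgeR adjusted p = 0.0109) and KO chow (-1.26, edgeR adjusted p = 0.0104). CYTB, of complex III, fell to 7602 ± 3418 CPM against 16644 ± 1447 CPM (log2 change -1.13 ± 0.34 SE, edgeR adjusted p = 0.033), with replicates 1 and 5 the lowest. ATP6 and COX2, at log2 fold changes of 0.50 and 0.52, were not called, so the 13 did not move alike.

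Few genes set KO NASH apart from all 3 other groups. All of the comparisons with WT chow, WT NASH and KO chow were called in 1 direction for 48 genes higher and 10 genes lower in KO NASH. By the largest of their 3 p-values, the foremost that rose were Kbtbd11, Dkk3, Adamtsl2, Ppl and H19, and the foremost that fell were Elovl6, ND5, Dhx58, Mfsd4b1 and Kyat3. Ppl (periplakin), which ties keratin to cell junctions, was at 10.8, 11.9, 5.57, 3.99 and 5.68 CPM in WT chow replicates 1 to 5 and at 49.5, 45.7, 29.2, 35.0 and 53.7 CPM in KO NASH replicates 1 to 5 (log2 change 2.48 ± 0.34 SE, edgeR adjusted p = 0.000372). It was at 15.6 ± 5.92 CPM in WT NASH and 10.5 ± 2.84 CPM in KO chow. Kbtbd11, a kelch-repeat protein, rose to 5.65 ± 2.06 CPM against 0.797 ± 0.352 CPM (log2 change 2.82 ± 0.35 SE, edgeR adjusted p = 0.000166), and the other groups were at 1.69 ± 0.347 CPM in WT NASH and 1.62 ± 0.516 CPM in KO chow. Adamtsl2, a secreted protein that binds fibrillin, rose to 20.9 ± 7.38 CPM against 6.53 ± 2.43 CPM (log2 change 1.67 ± 0.30 SE, edgeR adjusted p = 0.00277), from 8.37 ± 2.26 CPM in WT NASH and 4.79 ± 1.76 CPM in KO chow. Dkk3, a secreted dickkopf protein, was 1.30 (edgeR adjusted p = 0.00849) above WT NASH and 1.79 (edgeR adjusted p = 0.00443) above KO chow on the log2 scale. Dhx58 (LGP2), a regulator of RNA sensing, fell to 6.45 to 7.20 CPM from 8.61 to 15.5 CPM (log2 change -0.89 ± 0.21 SE, edgeR adjusted p = 0.0126). Kyat3, a kynurenine aminotransferase, fell to 85.0 ± 24.6 CPM against 249.8 ± 96.8 CPM (log2 change -1.56 ± 0.40 SE, edgeR adjusted p = 0.0186), with KO NASH replicates 1, 2 and 5 at 100.1 to 102 CPM, next to WT chow replicate 2 at 111 CPM. The interaction was called for none of these 10 genes (edgeR adjusted p = 0.0747 to 0.843), so a joint effect beyond the sum of the single ones on the log2 scale was not shown.

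Several of the most raised genes were near 0 in the controls, and some of them were high in KO chow too. Aqp7, the glycerol channel of adipocytes, had 1 count over the 5 controls and 661 over the 5 KO NASH livers, a ratio per scaled count of 439 (exact interval at 95%, counting error only, 78.6 to 17374). It was at 2.06 to 9.85 CPM in KO NASH, against 0.0129 ± 0.0289 CPM in WT NASH and 6.81 ± 4.24 CPM in KO chow. Sprr1a, a small proline-rich protein of stressed epithelia, had 0 counts in all 5 controls and all 5 WT NASH livers and 725 in KO NASH, at least 161-fold higher against a floor of 3 counts over the group. Areg, the EGF receptor ligand amphiregulin, had 0 and 668 counts, at least 148-fold higher, of which KO NASH replicates 1 and 5, at 15.4 and 12.9 CPM, gave nearly all. Replicates 2, 3 and 4 were at 0.171, 0.993 and 0.0958 CPM. Gucy2c, the guanylin receptor, was at 0.948, 1.25, 0.597, 0.76 and 0.901 CPM in WT chow replicates 1 to 5 and at 13.6, 19.8, 13.7, 7.14 and 10.8 CPM in KO NASH replicates 1 to 5 (log2 change 3.84 ± 0.42 SE, edgeR adjusted p = 4.59e-05), and at 2.63 ± 1.57 CPM in WT NASH and 13.8 ± 5.84 CPM in KO chow. Pmm1, a phosphomannomutase, rose to 10.2 ± 2.59 CPM against 2.16 ± 0.631 CPM (log2 change 2.23 ± 0.25 SE, edgeR adjusted p = 4.59e-05), with KO chow at 2.01 (edgeR adjusted p = 0.000129) and WT NASH at 0.10 (edgeR adjusted p = 0.842). Osbpl3, an oxysterol-binding protein, rose to 32.1 ± 9.39 CPM against 4.08 ± 1.77 CPM (log2 change 2.96 ± 0.36 SE, edgeR adjusted p = 0.000157), with KO chow at 2.53 (edgeR adjusted p = 0.000541) and WT NASH at -0.95 (edgeR adjusted p = 0.127). Myo15b rose to 8.43 ± 3.08 CPM against 0.129 ± 0.118 CPM (log2 change 6.04 ± 0.74 SE, edgeR adjusted p = 0.000157). Gpc1, a heparan sulfate proteoglycan, was at 16.3, 15.8, 17.1, 8.64 and 7.69 CPM in WT chow replicates 1 to 5 and at 64.3, 47.7, 67.3, 63.9 and 63.5 CPM in KO NASH replicates 1 to 5 (log2 change 2.23 ± 0.26 SE, edgeR adjusted p = 9.75e-05). It was lower in WT NASH than in WT chow (-1.30, edgeR adjusted p = 0.00574), higher in KO chow (1.73, edgeR adjusted p = 0.000788), and its interaction was 1.80 (edgeR adjusted p = 0.0451).

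**Figure D5:**
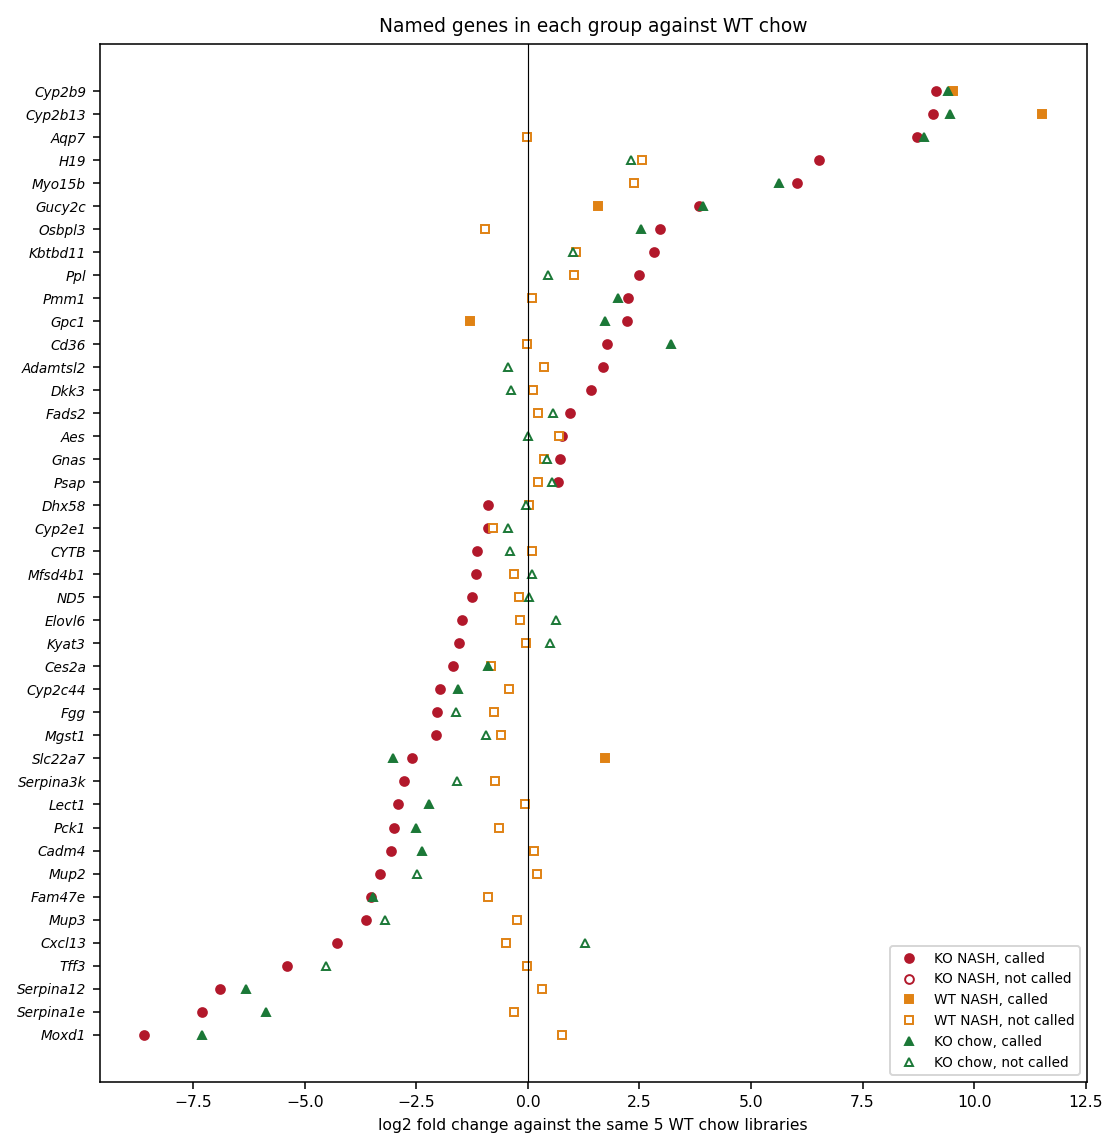
Log2 fold change of genes named by rule and reported here that had counts in every group, in KO NASH (circles), WT NASH (squares) and KO chow (triangles), each against the same 5 WT chow libraries. Filled symbols passed the edgeR test. Symbols of KO NASH and KO chow lie near each other for Aqp7, Pmm1 and Serpina12, while Elovl6, ND5, Adamtsl2 and Dkk3 have a filled symbol in KO NASH alone.

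Other genes that fell with small p or from a high level were of varied kinds. Lect1 (chondromodulin) fell to 1.30 ± 0.428 CPM against 9.64 ± 4.60 CPM (log2 change -2.90 ± 0.44 SE, edgeR adjusted p = 0.00075), and Cadm4, a cell adhesion molecule, to 0.603 ± 0.221 CPM against 5.04 ± 1.91 CPM (log2 change -3.06 ± 0.46 SE, edgeR adjusted p = 0.000834), each in every KO NASH liver. Fam47e fell to 4.65 ± 3.25 CPM against 53.5 ± 30.7 CPM (log2 change -3.52 ± 0.87 SE, edgeR adjusted p = 0.0147). Mup3 and Mup2, of the urinary protein family, fell to 176 ± 162 CPM against 2162 ± 1568 CPM and 0.607 ± 0.357 CPM against 5.92 ± 2.60 CPM (edgeR adjusted p = 0.0292 and 0.0216). The genes that rose with the highest mean level over the 10 libraries were Cd36, Fads2, Psap, Gnas and Aes. Psap, the precursor of the saposins that serve lysosomal lipid breakdown, rose to 702 ± 88.4 CPM against 441 ± 83.7 CPM (log2 change 0.67 ± 0.22 SE, edgeR adjusted p = 0.0436), Gnas, the stimulatory G protein, to 313 ± 12.7 CPM against 189 ± 58.6 CPM (log2 change 0.73 ± 0.24 SE, edgeR adjusted p = 0.045), and Aes, a co-repressor, to 309.5 ± 65.6 CPM against 183 ± 56.2 CPM (log2 change 0.76 ± 0.24 SE, edgeR adjusted p = 0.037). None of the last 3 was called without the libraries of negative slope (0.46, 0.35 and 0.41, edgeR adjusted p = 0.112, 0.215 and 0.256).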

How the data were processed

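Liver RNA of 20 mice was sequenced, and the authors deposited whole-number counts per gene symbol in 1 table, whose columns were matched to the samples by the diet, genotype and mouse number in each title. The columns mark diets CD and HFD, where the labels have chow and NASH: CD was read as chow, and HFD as the NASH diet because no other diet remained. Reads were aligned with HISAT2 2.0.4 to GRCm38, per the submitters' processing notes. Which program counted the reads, with which annotation and strand setting, is not given in the sources used here. Counts were tested as deposited.

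Of 46095 symbols, 26350 had a count and 14440 passed edgeR's filterByExpr (minimum count 10); these held 99.9% of counts. edgeR 4.0.16 (R 4.3.3) fitted a quasi-likelihood model with a term for each of the 4 groups to all 20 libraries, scaled by TMM, and contrasted KO NASH with WT chow. Genes with a Benjamini-Hochberg adjusted p under 0.05 were called. Values are TMM-scaled CPM, with mean ± SD over n = 5. The biological coefficient of variation was 39.0%. The scripts were tested on simulated data. The labels number the mice and do not say whether they shared litters or cages, so p-values measure only the spread between these livers.

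The members and gene lists were chosen with earlier results of these data known, and a list of mitochondrial genes was added after the values were seen. Genes were named by rule: Pck1; the 8 most raised and 8 most lowered called genes without overlap and with at least 5 CPM in the higher group; the 6 and 6 of smallest p; the 5 and 5 of highest level; the 5 and 5 set apart from all other groups; and list members. Predicted genes and pseudogenes were not named, and a few genes are not reported here. Sex was read from Y-linked counts (100 or more for male). The length slope used 9518 genes (average log2 CPM 2 or more) and GENCODE M21 exonic lengths, found for 93.5% of tested genes. Same-numbered mice of WT chow and KO NASH did not deviate together from their group means (correlations of -0.20 to 0.17 by number), so replicate numbers were not used as pairs. The other groups were not compared in this way. Alternatives were other scalings, filters and tools (DESeq2 1.42.0, limma 3.58.1), a replicate block, terms or subsets for sex and slope, and leaving out each library. A few further subsets were chosen after the data were seen.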

Additional observations from a re-analysis of the deposited data

Results flagged for a closer look

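Among 322 groups of 5 libraries (161 named genes in WT chow and in KO NASH), 37 held a library that stood apart from the other 4 by Dixon's criterion. For normally distributed values chance alone gives this in about 1 in 20 groups (16.1 here). CPM were used without logs, and groups at 0 throughout, such as Sprr1a in WT chow, could not be tested. The rate is therefore only a rough guide. KO NASH replicate 3 stood apart for 9 genes, of which 6 belong to sterol synthesis: Hmgcs1 (202 CPM), Dhcr7 (67.9), Fdps (61.8), Lss (45.4), Nsdhl (34.8) and Mvd (7.45). The other 3 were Psap (854 CPM), Crp (613 CPM) and Slc27a1 (140 CPM). WT chow replicate 4, of negative length slope, stood apart for 8, as the highest control for Ifit1 (59.1 CPM), Il1rn (33.1 CPM), Gzma (18.4 CPM), Itgax (3.32 CPM), H19 (1.52 CPM) and Aqp7 (0.0950 CPM, its single count) and as the lowest for Pparg (1.90 CPM) and Mvd (0.0950 CPM). KO NASH replicate 4 stood apart for Mdh2 (164 CPM), Cyp1a2 (143 CPM), Ces2a (117 CPM), Cfd (54.4 CPM), Krt23 (24.8 CPM) and Thrsp (18.0 CPM). The female KO NASH replicate 2 stood apart for Fgb (4162 CPM), Cyp2b13 (158 CPM), Cyp2c54 (83.9 CPM), Ucp2 (79.9 CPM) and Gpc1 (47.7 CPM), and replicate 5 for Slc25a11 (11.6 CPM). Among the other controls, replicate 5 stood apart for Khk (424 CPM), Thrsp (93.6 CPM), Mogat1 (3.67 CPM) and Cfd (1.11 CPM), replicate 1 for Pdgfra (11.8 CPM), Cygb (5.21 CPM) and Ngfr (2.72 CPM), and replicate 2 for Timd4 (36.8 CPM).

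The diet's effect differed between the genotypes by edgeR's interaction test for 5 named genes. On the log2 scale the effect in the knockout minus that in WT was 4.18 for Cidec, 1.80 for Gpc1, -2.29 for Pik3c2g, -2.87 for Hmgcs1 and -9.80 for Cyp2b9. WT NASH held 4 females and WT chow none, and the part of sex in these values was not tested.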

How the results depend on the processing

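Over 38 alternatives none of the 157 named genes with a finite fold changed sign where it was tested, and 153 of them were called with all libraries. Most were named because they were called, and the alternatives reuse the same libraries, so a kept sign says little. Calls were kept less often. Besides Pck1, 136 named genes lost their call without WT chow replicates 3, 4 and 5. Without the libraries of negative slope 81 lost it and 2 gained one, 72 lost it with the slope as a term, and 50 without KO NASH replicate 5. The alternatives overlap and are not independent. Leaving out the female KO NASH library and leaving out KO NASH replicate 2 are the same fit, and the alternative with a fold threshold keeps the main folds. Some fits leave out only libraries of WT NASH or KO chow. Pck1 was called in each, at log2 fold changes of -3.38 to -2.89. The count of called genes, 2390 with all libraries, depended on the libraries more than on the scaling. It was 1479 with a filter of mean 5 CPM, 3875 with DESeq2, 7209 with limma voom and sample quality weights, 711 with the length slope as a term (552 of them among the 2390), 932 with sex and slope as terms, 808 without the libraries of negative slope (533 among the 2390) and 916 with KO NASH replicates 1 and 5 summed. Chosen after seeing the data, male libraries of positive slope alone gave 674, leaving out WT chow replicates 3, 4 and 5 gave 38, and leaving out the female KO NASH library gave 1333. Leaving out 1 library at a time gave 804 (without KO NASH replicate 5) to 3947 (without WT chow replicate 2); among controls, it was 3905 when replicate 1 was left out, 899 for replicate 3, 1039 for replicate 4 and 950 for replicate 5, and among KO NASH livers 1030 for replicate 1, 1284 for replicate 3 and 1569 for replicate 4. The cause of these shifts was not tested. A replicate block by the labels' numbers gave 3363 calls. RLE scaling gave 2456 and male libraries alone 2280. At these depths genes of few counts, such as Sprr1a and Areg, have bounds in place of folds, and these cover counting error only.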

Other observations

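Red blood cell transcripts were lower in KO NASH. Of 5 tested markers 3 fell, the globins Hbb-bs, Hbb-bt and Hba-a2, against 8.93% of all genes. The summed level was 34.4 to 85.6 CPM against 81.4 to 245 CPM in WT chow. Hbb-bs was at 15.3, 112, 63.1, 103 and 33.3 CPM in WT chow replicates 1 to 5 and at 11.04, 12.8, 15.5, 8.34 and 5.58 CPM in KO NASH replicates 1 to 5 (log2 change -2.62 ± 0.43 SE, edgeR adjusted p = 0.00148), a call kept in 38 of 38 alternatives. WT chow replicate 1 lay inside the KO NASH range. It was at 13.2 ± 3.13 CPM in WT NASH and 63.4 ± 21.7 CPM in KO chow. Globin genes are near-identical copies, and residual blood in the tissue was not measured.

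Clock genes gave 3 calls of 19, a share close to the 16.6% of all genes tested. Arntl (BMAL1), the activator of the clock, was at 4.80, 3.79, 1.99, 2.37 and 1.59 CPM in WT chow replicates 1 to 5 and at 8.36, 5.56, 5.46, 5.70 and 11.5 CPM in KO NASH replicates 1 to 5 (log2 change 1.32 ± 0.33 SE, edgeR adjusted p = 0.0151), and at 19.7 ± 7.21 CPM in WT NASH and 3.39 ± 0.908 CPM in KO chow. Npas2, a partner of it, rose from below 0.7 CPM (log2 change 2.34 ± 0.71 SE, edgeR adjusted p = 0.0348). No clock gene was called without the libraries of negative slope, and the hour at which livers were taken is not given in the sources used here. Of 21 NRF2 and glutathione genes 3 rose: Gsta1 and Gstm3, glutathione transferases with close copies, and Gpx3, a secreted peroxidase (log2 change 1.16 ± 0.37 SE, edgeR adjusted p = 0.0404). Of 16 iron and heme genes Hamp2 and Smad6 rose. The calls in both of these lists were all higher, against 7.62% of all genes called higher and 16.6% called in either direction. Cfd (adipsin), a complement protease abundant in adipocytes, was at 0, 0, 0.199, 0.285 and 1.11 CPM in WT chow replicates 1 to 5 and at 6.74, 3.59, 7.33, 54.4 and 9.43 CPM in KO NASH replicates 1 to 5 (log2 change 5.72 ± 1.08 SE, edgeR adjusted p = 0.00365). Adipoq, another adipocyte gene, had at most 6 counts in any KO NASH library. No marker of cholangiocytes, B cells, neutrophils or dendritic cells was called, and of T and NK cell markers Gzma alone fell (log2 change -3.46 ± 0.81 SE, edgeR adjusted p = 0.0111).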
